A study of Homo sapiens with 21 samples.

Results

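The 4 cyclin-dependent kinases that drive the cell cycle, CDK1, CDK2, CDK4 and CDK6, were followed in IMR90 human lung fibroblasts. Senescence was induced by irradiation, and cyclin D1 or its kinase partners were depleted. The members were chosen by symbol, and all 4 were found among the 16383 genes of the deposited table and passed the filter on low values. RNA captured by its poly(A) tail was sequenced from 21 libraries in 7 groups of 3. The proliferating group was labelled wild type, was not irradiated and carried no treatment. The other 6 groups were irradiated, transfected with siRNA at 5 nM with the DharmaFECT reagent on days 4 and 7 and harvested on day 10. Of these, 2 received a non-targeting control (NT3 or NT4), and 4 received siRNA to CCND1, to CDK4, to CDK6, or to both kinases at once (dual knockdown). The series description numbers the controls NT1 and NT2, and the sample titles' numbers are used here. Irradiation and transfection went together, so in any comparison with proliferating cells their effects cannot be told apart. One siRNA name is given per target, and effects of a reagent on other transcripts cannot be told apart from effects of losing the target. Whether the dual knockdown received 5 nM of each siRNA or in all is not stated in the labels.

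Cyclin-dependent kinases are serine/threonine kinases that are active only when bound to a cyclin. CDK4 and CDK6 bind D cyclins and phosphorylate the retinoblastoma protein RB in G1, CDK2 binds E and A cyclins around the start and course of DNA replication, and CDK1 binds A and B cyclins to drive mitosis. Unphosphorylated RB and its relatives hold E2F target genes silent, and CDK inhibitors such as p21 (CDKN1A) and the INK4 proteins hold the kinases inactive. Senescent cells have left the cell cycle durably, and CDK1 transcripts are made mostly in cells passing through S, G2 and M phase.

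Reads in the listed genes ranged from 12892442 to 21822152 per library. Values are normalised read counts, the reads of a gene divided by 1 size factor per library, and they are compared between groups and never between genes, since gene length is not in them. Differences are log2 differences from limma on log2(normalised count + 1), with adjusted p-values by the Benjamini-Hochberg method over 11579 tested genes and a threshold of 0.05. Controls means the 6 NT3 and NT4 libraries together, and comparisons with them share these libraries. No label says that the libraries of a group came from separate cultures, so p-values measure the spread between these libraries, which may be technical. In such bulk samples, fewer cells holding a transcript and less of it per cell cannot be told apart. All 10 fibroblast markers were detected in every library, among them COL1A1 at 186736 or more. Of these markers 7 were lower and 2 higher in senescent controls than in proliferating cells, where 68.6% of all genes were called. After dual knockdown 7 were higher and 1 lower than in the controls, where 44.0% of all genes were called. The 7 epithelial markers summed to 14.9 to 18.3 in proliferating cells and to 16.7 to 57.1 over the control libraries, most of it EPCAM (12.2 to 47.8 over all libraries), while KRT5 was at 0 in 19 of 21 libraries and KRT14 in 17. Of the immune markers CD68, which fibroblasts also express, was at 650 to 1588 over all libraries, PTPRC reached at most 8.90 and CD3E was at 0 in 17 libraries. EPCAM and CD68 were both called higher in senescent controls than in proliferating cells (log2 differences of 0.71 and 0.70) and both differed between NT4 and NT3 (-1.17 and 0.55). The 4 endothelial markers summed to 7.09 to 9.61 in proliferating cells and to 35.0 to 48.2 over the control libraries, with CDH5 at 0 in 13 libraries. The part of these markers in any result was not tested. NT3 replicate 3 lay farthest from its group mean, with an SD of log2 deviations of 0.344. Some of the results that it moves, but not all, are also given without it.

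Promoter windows describe the sequence around annotated starts of CDK1, CDK4 and CDK6. Whether this sequence has a part in how the transcripts moved was not tested. RefSeq windows on GRCh38.p14, of 250 bases before and 50 after an annotated start, matched 3 of the 4 members. Both strands were searched for 4 motifs, and capitals mark the matches. The cell cycle homology region (CHR) was searched as TTTGAA. The CCAAT box was searched by its own letters. An E2F-like site was searched as TTNNCGC. The GC box was searched as GGGCGG. The windows are CDK1 on the plus strand at chr10:60778228-60778527, CDK4 on the minus strand at chr12:57752261-57752560 and CDK6 on the minus strand at chr7:92836524-92836823. For CDK1 the window of the downstream start is printed and for CDK6 that of the upstream start, and their other windows are described below.

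CDK1: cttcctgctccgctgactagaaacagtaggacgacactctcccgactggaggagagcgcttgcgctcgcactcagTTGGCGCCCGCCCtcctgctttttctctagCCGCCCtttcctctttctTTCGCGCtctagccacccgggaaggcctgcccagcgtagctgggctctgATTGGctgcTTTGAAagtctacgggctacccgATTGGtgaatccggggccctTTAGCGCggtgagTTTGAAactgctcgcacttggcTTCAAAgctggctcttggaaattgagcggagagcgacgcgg

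CDK4: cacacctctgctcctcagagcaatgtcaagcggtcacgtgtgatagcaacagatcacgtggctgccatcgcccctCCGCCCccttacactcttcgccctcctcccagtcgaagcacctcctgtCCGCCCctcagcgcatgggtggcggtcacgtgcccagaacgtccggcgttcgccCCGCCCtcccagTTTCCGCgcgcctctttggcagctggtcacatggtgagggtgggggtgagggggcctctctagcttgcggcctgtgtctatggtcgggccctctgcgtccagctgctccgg

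CDK6: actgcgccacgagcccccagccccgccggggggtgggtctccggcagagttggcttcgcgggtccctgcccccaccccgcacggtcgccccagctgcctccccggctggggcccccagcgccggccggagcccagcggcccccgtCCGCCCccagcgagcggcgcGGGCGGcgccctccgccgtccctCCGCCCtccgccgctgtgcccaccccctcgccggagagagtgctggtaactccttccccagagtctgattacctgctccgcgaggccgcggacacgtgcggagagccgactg

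The CDK1 window held 3 CHR matches, 2 CCAAT matches, 3 E2F-like matches and 2 GC boxes, of which an E2F-like match and a GC box adjoin and read as 1 run. The CDK4 window held 1 E2F-like match and 3 GC boxes, and the CDK6 window held 3 GC boxes, while neither held CHR or CCAAT letters. Of 35116 such windows, 15.2% held a CHR match, 34.6% a CCAAT match, 25.3% an E2F-like match and 45% a GC box. A match is a description of letters only, since binding was not measured. An upstream CDK1 start, at 60778331, had 1 CHR, 1 CCAAT, 2 E2F-like and 2 GC box matches in its window. It is the first base of the gene position given for CDK1 below. A downstream CDK6 start, at 92833959, had none of the 4.

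CDK4 (ENSG00000135446, chr12:57747727-57752310, minus strand, GRCh38) is the D cyclin kinase that was targeted in 2 of the groups. Its normalised counts were 2183, 2160 and 2219 in proliferating cells, 1157, 1166 and 1334 with NT3, and 1356, 1250 and 1223 with NT4. They were 1072, 1073 and 1148 after CCND1 knockdown and 1015, 946 and 889 after CDK6 knockdown. In the groups given CDK4 siRNA they were 108.9, 105.6 and 109.9 (CDK4 knockdown) and 122.5, 114.7 and 115.1 (dual knockdown). The 3 levels are well apart: proliferating libraries lay above all irradiated ones, and the CDK4 siRNA groups lay far below every other group. Remaining CDK4 was 8.67% of the control mean after CDK4 knockdown (8.87% of NT3 and 8.47% of NT4) and 9.41% after dual knockdown. In the order of group means NT4 (1276 ± 70.0, SD, n = 3) and NT3 (1219 ± 99.3) did not differ beyond their spread, while each other pair of neighbours did.

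Counting at CDK4 has a limit. By GENCODE v44, 1369 of its 3094 exon bases (44.2%) are shared with TSPAN31, a tetraspanin gene on the opposite strand, and whether reads were counted by strand is not given in the sources used here. If they were not counted by strand, reads of the 2 genes cannot be told apart in the shared bases. The GENCODE gene ends at 57756013, beyond the RefSeq span given above for CDK4. TSPAN31 was at 236 ± 10.4 in proliferating cells, 388 ± 27.1 (n = 6) in the controls, 420 ± 39.0 after CDK4 knockdown, 531 ± 26.1 after CDK6 knockdown and 510 ± 30.7 after dual knockdown. TSPAN31 was thus higher in the controls than in proliferating cells, with a log2 difference of 0.71 (limma adjusted p = 1.03e-08). CDK4 went the other way and was lower in the controls.

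CDK6 (ENSG00000105810, chr7:92604921-92836573, minus strand), the second D cyclin kinase, behaved differently from CDK4 in irradiated cells. Its normalised counts were 3483, 3520 and 3706 in proliferating cells, 5372, 5689 and 4147 with NT3, and 4458, 4230 and 4339 with NT4. They were 4853, 5318 and 5210 after CCND1 knockdown and 6324, 6397 and 5163 after CDK4 knockdown. In the groups given CDK6 siRNA they were 834, 727 and 760 (CDK6 knockdown) and 930, 975 and 998 (dual knockdown). Every irradiated library without CDK6 siRNA lay above every proliferating library, and in the order of means neither CCND1 knockdown and NT3 nor NT3 and NT4 differed beyond their spread. Remaining CDK6 was 16.4% of the control mean after CDK6 knockdown (15.3% of NT3 and 17.8% of NT4) and 20.6% after dual knockdown (19.1% and 22.3%). CDK6 had its widest relative spread with NT3 (coefficient of variation 16.1%), where replicate 3 was the low library. Of its exon bases, 0.703% are shared with the antisense gene CDK6-AS1.

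CDK2 (ENSG00000123374, chr12:55966830-55972789, plus strand), the partner of cyclins E and A, was the target of no siRNA here. Its normalised counts were 2296, 2398 and 2165 in proliferating cells, 1161, 1199 and 1147 with NT3, 955, 907 and 896 with NT4, and 902, 840 and 899 after CCND1 knockdown. They were 513, 497 and 502 after CDK4 knockdown, 497, 475 and 482 after CDK6 knockdown, and 252, 328 and 264 after dual knockdown. Proliferating libraries lay above all others and dual knockdown libraries below all others, while libraries of NT4 and CCND1 knockdown overlap. In the order of means every gap exceeded the larger SD, but 2 of the steps were small and not called, NT4 to CCND1 knockdown and CDK4 to CDK6 knockdown, as given below. As a share of the control mean, CDK2 was at 48.3% after CDK4 knockdown, 46.4% after CDK6 knockdown and 26.9% after dual knockdown. Exon bases shared on the opposite strand are 2.29% with PMEL and 14.5% with ENSG00000258554, a long non-coding RNA gene.

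CDK1 (ENSG00000170312, chr10:60778331-60794852, plus strand), the mitotic kinase, was the one most reduced in the senescent controls. Its normalised counts were 1390, 1459 and 1422 in proliferating cells, 228, 192 and 198 with NT3, and 210, 169 and 219 with NT4. They were 133, 137 and 104.04 after CCND1 knockdown, 237, 269 and 259 after CDK4 knockdown, and 122, 85.7 and 137 after CDK6 knockdown. After dual knockdown they were 32.0, 39.3 and 39.0, from 29, 36 and 39 reads, so counting error weighs most there. Proliferating libraries stood far above all others, CDK4 knockdown libraries above all control libraries, and dual knockdown libraries below all others. NT3 and NT4 did not differ beyond their spread, nor did CCND1 knockdown (125 ± 17.8) and CDK6 knockdown (115 ± 26.4). The dual knockdown mean was 2.58% of the proliferating mean, against 14.2% in the controls.

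**Figure D1:**
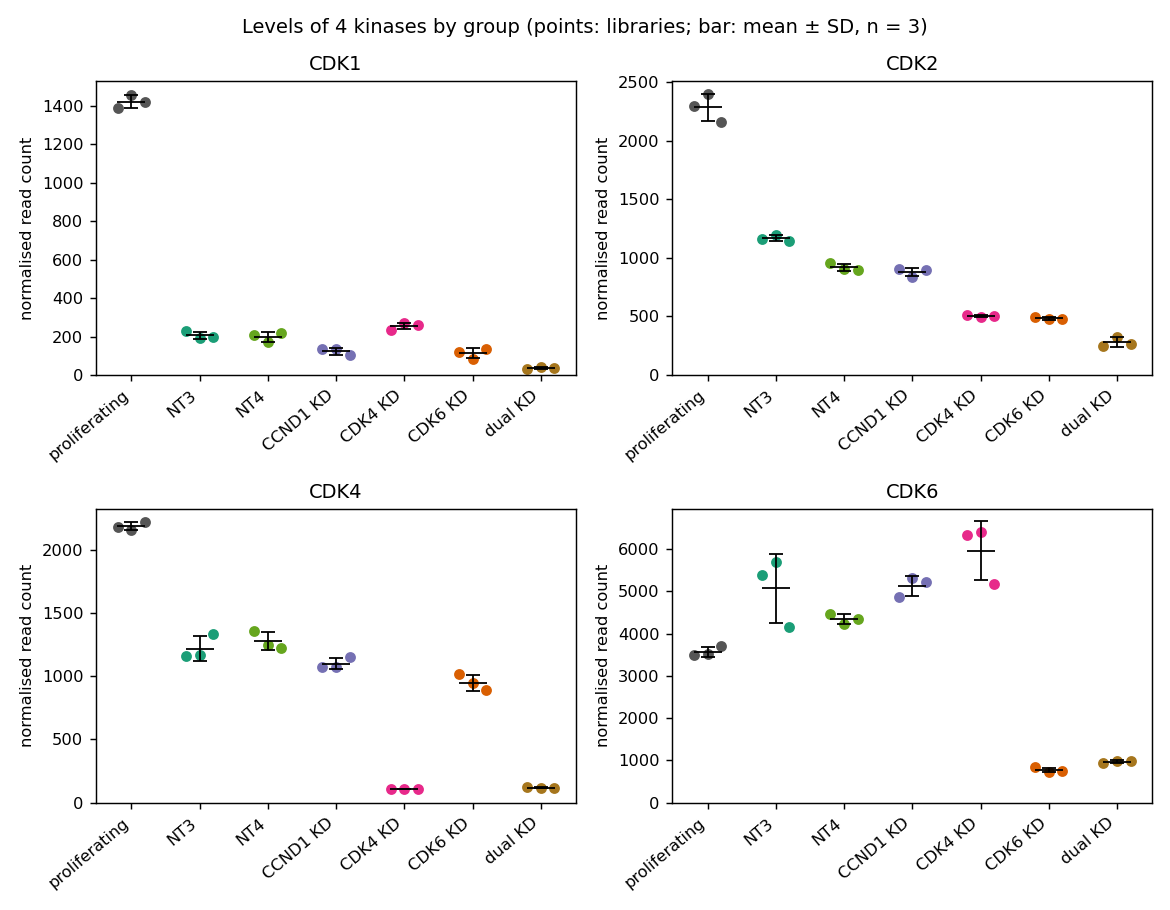
Normalised read counts (vertical axes, from 0) of CDK1, CDK2, CDK4 and CDK6 in the 7 groups (horizontal axes); points are libraries, horizontal bars the mean and error bars the SD of 3 libraries. CDK2 is lowest in the dual knockdown, at 281, whereas CDK6 is above the proliferating mean of 3570 in every irradiated group without CDK6 siRNA.

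The first question was how the 4 kinases stood in senescent controls compared with proliferating cells. CDK1, CDK2 and CDK4 fell and CDK6 rose. All 4 passed the threshold in a comparison where 68.6% of all tested genes did, so the count by itself says little of them, and the median log2 difference over all genes was -0.03. Over all genes 3769 were higher and 4176 lower, and with median centring 4614 were higher and 3355 lower. CDK1 fell by 2.81 on the log2 scale (SE 0.13, limma adjusted p = 2.93e-14), which leaves 0.142 of the proliferating level. CDK2 fell by 1.14 (SE 0.07, limma adjusted p = 1.28e-12) and CDK4 fell by 0.81 (SE 0.06, limma adjusted p = 7.99e-11). CDK6 rose by 0.39 (SE 0.08, limma adjusted p = 0.000204), a 1.31-fold difference. In none of these 4 cases did the control libraries overlap with the proliferating libraries. The share of all tested genes without such overlap was not counted, so this too says little of the members. By size, the change of CDK1 ranked 325 among the tested genes and that of CDK6 ranked 6004.

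The partners and regulators of the kinases, from lists chosen with earlier results of these data known, moved in both directions. All 3 D cyclins, the partners of CDK4 and CDK6, were higher in senescent controls, with log2 differences of 5.01 for CCND2, 1.23 for CCND1 and 0.88 for CCND3. Of 5 tested A, B and E cyclins 4 fell, among them CCNA2 by a log2 difference of -3.05 and CCNB2 by -2.74, and 1 (CCNE1) rose, a call lost against NT4 alone. Of the 6 tested CDK inhibitors 2 rose, CDKN1A (p21) by 2.55 and CDKN2B (p15) by 1.21, while 3 fell, with CDKN2C (p18) at -3.30 and CDKN1B (p27) at -1.20. Of 10 regulators of kinase activity, phosphatases and kinases of the inhibitory site, CDK-activating kinase and CKS proteins, 8 fell. CDC25C, a phosphatase that activates CDK1, was at -3.22 and PKMYT1, a kinase that inhibits CDK1, at -2.22. Of 18 tested RB, E2F and DREAM factors 16 fell and 1 rose, with a median log2 difference of -0.67 and E2F8 and MYBL2 lowest at -3.37 and -3.06. Of 15 other members of the CDK family 3 rose and 7 fell, a share near the 68.6% over all genes, and the median was -0.05.

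Both non-targeting siRNAs were compared as a measure of what a control siRNA alone can move. CDK2 was lower with NT4 than with NT3, with a log2 difference of -0.35 (SE 0.08, limma adjusted p = 0.0018). The libraries did not overlap, and the share of all genes without overlap was not counted. CDK2 was the one member called of 4, where 27.8% of all genes were called. CDK1 had a log2 difference of -0.05 and CDK4 of 0.07, neither past the threshold (limma adjusted p = 0.837 and 0.497). CDK6 was at -0.21 (limma adjusted p = 0.0953), and without NT3 replicate 3 its difference was -0.35 (limma adjusted p = 0.000531). All 3 D cyclins were higher with NT4, by log2 differences of 0.54 for CCND1, 0.22 for CCND2 and 0.21 for CCND3, and all 3 were called. The values below use both controls.

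Loss of cyclin D1, the partner of CDK4 and CDK6, was asked about through the CCND1 knockdown, where CCND1 remained at 11.8% of the control mean. CDK1 fell by 0.70 on the log2 scale (SE 0.13, limma adjusted p = 0.000297), to 0.614 of the controls, with no overlap of libraries. The share of all genes without overlap was not counted. CDK2 fell by 0.24 (SE 0.07, limma adjusted p = 0.0093) and CDK4 fell by 0.18 (SE 0.06, limma adjusted p = 0.0246). Thus 3 of 4 members were called, where 31.0% of all genes were called. Both small changes were fragile: the CDK2 difference was -0.06 against NT4 alone (limma adjusted p = 0.619), and that of CDK4 missed the threshold against NT3 alone (-0.15, limma adjusted p = 0.0942). Single libraries also decided them, since the CDK2 call was lost without CCND1 knockdown replicate 2 and the CDK4 call without CCND1 knockdown replicate 1, without its replicate 2 or without NT4 replicate 1. CDK6 had a log2 difference of 0.13 (limma adjusted p = 0.219, 95% interval -0.03 to 0.30). Among the regulators, 3 of 5 A, B and E cyclins fell, led by CCNB2 at -0.67, and 9 of 18 RB, E2F and DREAM factors fell, led by E2F2 at -1.49 and FOXM1 at -0.73. Against NT4 alone 5 of these 18 fell, while the calls over all genes went from 3594 to 2235. E2F2 was at -1.02 there (limma adjusted p = 0.15), and it had only 3, 3 and 5 reads after CCND1 knockdown.

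After CDK4 knockdown the remaining kinases moved in different directions. CDK4 itself fell by 3.51 on the log2 scale (limma adjusted p = 8.59e-21), the largest difference of any tested gene. CDK2 fell by 1.04 (SE 0.07, limma adjusted p = 4.73e-10), rank 85 by size, with no overlap of libraries. CDK6 rose by 0.35 (SE 0.08, limma adjusted p = 0.00471), but its libraries overlap with those of the controls, the difference against NT3 alone was 0.24 (limma adjusted p = 0.0613), and the call was lost without CDK4 knockdown replicate 2 (limma adjusted p = 0.0528). CDK1 had a log2 difference of 0.33 (SE 0.13) that missed the threshold with limma (adjusted p = 0.0863). It passed with edgeR (adjusted p = 0.0381) and DESeq2 (adjusted p = 0.0235). Its libraries did not overlap with the controls, as for CDK2, but the share of all genes without overlap was not counted. With limma 3 of 4 members were called, the siRNA target CDK4 among them, where 16.0% of all genes were called.

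The cyclins of CDK1 also stood higher after CDK4 knockdown. Of the 5 tested A, B and E cyclins 3 rose, where 8.46% of all genes rose: CCNA2 by a log2 difference of 0.55, CCNB1 by 0.49 and CCNB2 by 0.46. Without CDK4 knockdown replicate 2, or without its replicate 3, 1 of them was called. The calls over all genes were then 1061 and 1445, in place of 1854. The CCNA2 call was lost against NT4 alone (limma adjusted p = 0.0765) and the CCNB2 call against NT3 alone (limma adjusted p = 0.152). CDKN1A fell by 0.49, and CDC25B, a phosphatase that activates CDKs, fell by 0.63. Of 18 RB, E2F and DREAM factors 2 fell and 16 were not called, with a median of 0.01. Over all genes 7.55% fell and 16.0% were called in either direction, so this count says little of the list. Without NT3 replicate 3, 5 fell and 1 rose, while the calls over all genes went from 1854 to 2694. Among D cyclins CCND2 fell by 0.44, while CCND1 rose by 0.31 against both controls, a value that depends on NT3: it was 0.58 against NT3 alone and 0.04 against NT4 alone (limma adjusted p = 0.854). The CCND1 call was also lost without CDK4 knockdown replicate 1.

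After CDK6 knockdown all 4 kinases fell, the siRNA target CDK6 among them, where 41.9% of all genes were called. CDK6 fell by 2.59 on the log2 scale (limma adjusted p = 2.08e-15), rank 23 by size. CDK2 fell by 1.10 (SE 0.07, limma adjusted p = 4.41e-11) and CDK1 fell by 0.83 (SE 0.13, limma adjusted p = 2.36e-05). CDK4 fell by 0.39 (SE 0.06, limma adjusted p = 1.98e-05), to 0.762 of the controls. Libraries overlapped with the controls in none of the 4 cases, and the share of all genes without overlap was not counted. All 5 tested A, B and E cyclins fell, led by CCNE2 at -1.48, and all 3 D cyclins rose, by 0.53 for CCND1, 0.45 for CCND2 and 0.31 for CCND3. Against NT4 alone these differences were 0.26, 0.34 and 0.21, all still called. Of the inhibitors 4 of 6 fell, with CDKN2B at -1.66 and CDKN2A at -1.15. Of 18 RB, E2F and DREAM factors 8 fell and 1 rose, with E2F2 at -2.36 and E2F8 at -1.97, both of which had mean normalised counts under 3 in this group.

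The 2 single knockdowns were compared directly, with no shared controls. CDK1 was lower after CDK6 than after CDK4 knockdown, with a log2 difference of -1.17 (SE 0.15, limma adjusted p = 2.51e-06). CDK2 had a difference of -0.06 that was not called (limma adjusted p = 0.607), although its libraries did not overlap. The 95% interval was -0.22 to 0.10. That interval excludes a difference as large as the fall of CDK2 in either group. The differences of CDK4 (3.12) and CDK6 (-2.94) are those of the targets themselves. In all 3 of 4 members were called, both targets among them, where 34.8% of all genes were called. The 5 A, B and E cyclins were also all lower after CDK6 than after CDK4 knockdown, with a median of -1.10.

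**Figure D2:**
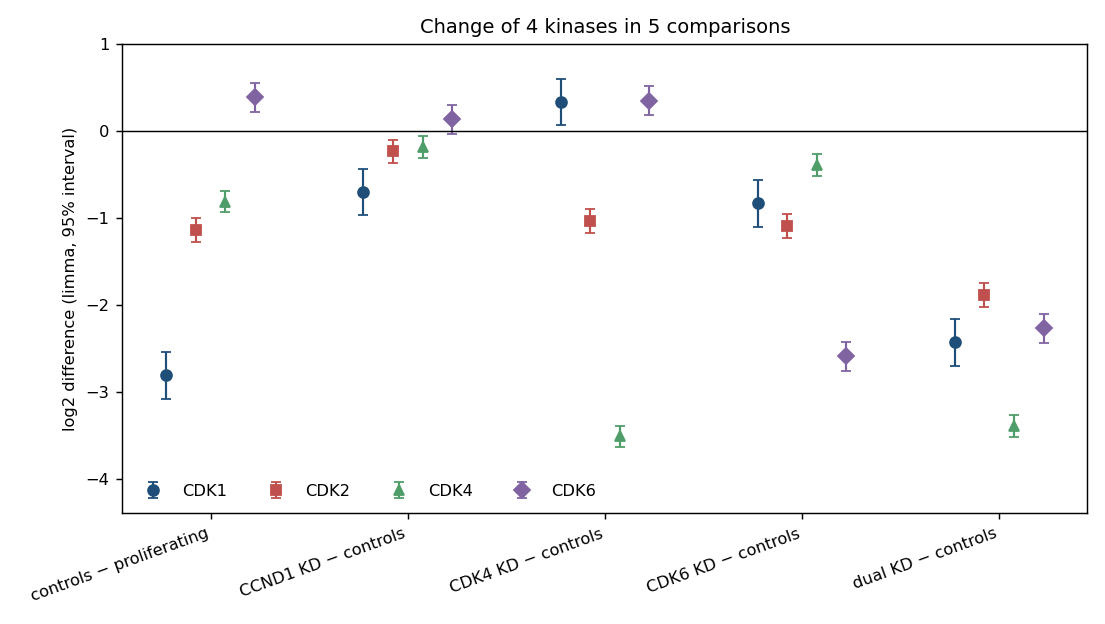
Log2 differences (vertical axis, limma estimates with 95% intervals) of CDK1, CDK2, CDK4 and CDK6 in 5 comparisons (horizontal axis). CDK2 lies near -1 in both single knockdowns, at -1.04 and -1.10, whereas CDK1 lies at 0.33 after CDK4 knockdown and at -0.83 after CDK6 knockdown.

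After dual knockdown all 4 kinases fell, the siRNA targets CDK4 and CDK6 among them, where 44.0% of all genes were called. CDK1 fell by 2.43 on the log2 scale (SE 0.13, limma adjusted p = 3.71e-12), to 0.186 of the controls, and ranked 72 by size. CDK2 fell by 1.89 (SE 0.07, limma adjusted p = 6.28e-15). The targets fell by 3.40 for CDK4 and by 2.27 for CDK6 (limma adjusted p = 1.75e-20 and 6.57e-15). No library overlapped with the controls for any member, and the share of all genes without overlap was not counted. All 5 A, B and E cyclins fell, led by CCNE2 at -2.29, from only 8, 26 and 19 reads, and CCNB2 at -2.01. All 3 D cyclins rose, by 0.53 for CCND1, 0.29 for CCND2 and 0.27 for CCND3. Against NT4 alone these differences were 0.26, 0.18 and 0.16, all still called. Of the 10 activity regulators 7 fell, with CDC25C at -2.41, from mean normalised counts of 5.37, and CDC25A at -1.03. Of 18 RB, E2F and DREAM factors 12 fell and 1 rose, with FOXM1 at -2.42 and MYBL2 at -2.41. Of the inhibitors 4 of 6 fell, among them CDKN2C at -1.30 and CDKN1A at -0.74, and CDKN1B rose. Few of the other CDKs were called, with 1 of 15 higher and 3 lower and a median of -0.08.

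Whether the second siRNA changed the kinases further was tested against each single knockdown. Against CDK4 knockdown, CDK1 fell by 2.76 (limma adjusted p = 6.66e-12) and CDK2 fell by 0.85 (limma adjusted p = 1.69e-08), so that with CDK6 itself 3 of 4 members were called, where 30.6% of all genes were called. CDK4 had a difference of 0.12 there that was not called (limma adjusted p = 0.212, 95% interval -0.03 to 0.26), although its libraries did not overlap. Against CDK6 knockdown, CDK1 fell by 1.60 (limma adjusted p = 1.72e-07) and CDK2 fell by 0.79 (limma adjusted p = 2.45e-07). All 4 members were called there, where 13.0% of all genes were called. CDK4, the target of the added siRNA, was lower, and CDK6 itself was 1.25-fold higher in the dual knockdown (limma adjusted p = 0.0223). The CDK6 call was lost without CDK6 knockdown replicate 2 or 3, without dual knockdown replicate 2 or 3, and with no filter on low values.

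The interaction term of the 2 knockdowns, here called the departure, is what remains of the dual log2 difference after both single ones are taken away. CDK1 fell much further than the sum: the sum was -0.50 and the measured difference -2.43, a departure of -1.93 (SE 0.20, limma adjusted p = 1.3e-06) with rank 51 by size. On the linear scale the sum corresponds to 70.7% of the controls and the fitted dual level was 18.6%. CDK2 had a sum of -2.13 and a measured difference of -1.89, a departure of 0.25 that missed the threshold (SE 0.10, limma adjusted p = 0.158, 95% interval 0.04 to 0.46). It passed against NT3 alone, at 0.42 (limma adjusted p = 0.0108). CDK6 had a departure of -0.02 (limma adjusted p = 0.949). CDK4 had a departure of 0.51 (limma adjusted p = 0.00118), with a sum of -3.91 and a measured difference of -3.40. CDK4 is itself a target in the CDK4 and dual knockdowns, and between these groups it differed by 0.12 (limma adjusted p = 0.212). So 2 of 4 members were called, the siRNA target CDK4 among them, where 6.35% of all genes were called. That share rests on 735 genes, and the number was 1436 without NT3 replicate 3 and 442 without CDK4 knockdown replicate 1, while the calls of CDK1 and CDK4 were kept under all 27 alternatives.

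Some cyclins and regulators also departed, although most of the listed genes were not called. Over all genes 6.35% were called, 2.63% upward and 3.71% downward. Of the 5 tested A, B and E cyclins 3 departed downward, CCNA2 by a log2 difference of -1.68, CCNB2 by -1.57 and CCNB1 by -1.12, and the list's median was -1.12, against a median near 0 over all genes. CDC25C (-1.75), PKMYT1 (-1.35) and CKS1B (-0.72), a small subunit that binds CDKs, departed downward among 10 activity regulators, of which 7 were not called. Among 18 RB, E2F and DREAM factors 4 departed downward, FOXM1 by -1.83, MYBL2 by -1.51, RBL1 by -0.88 and E2F1 by -0.62, and 13 were not called. The calls of CKS1B, RBL1 and E2F1 were lost against NT4 alone. CDKN2B and CDKN2A departed upward, by 0.89 and 0.67. CCND2 also departed upward, by 0.29. The calls of CCND2 and CDC25C were lost against NT3 alone.

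**Figure D3:**
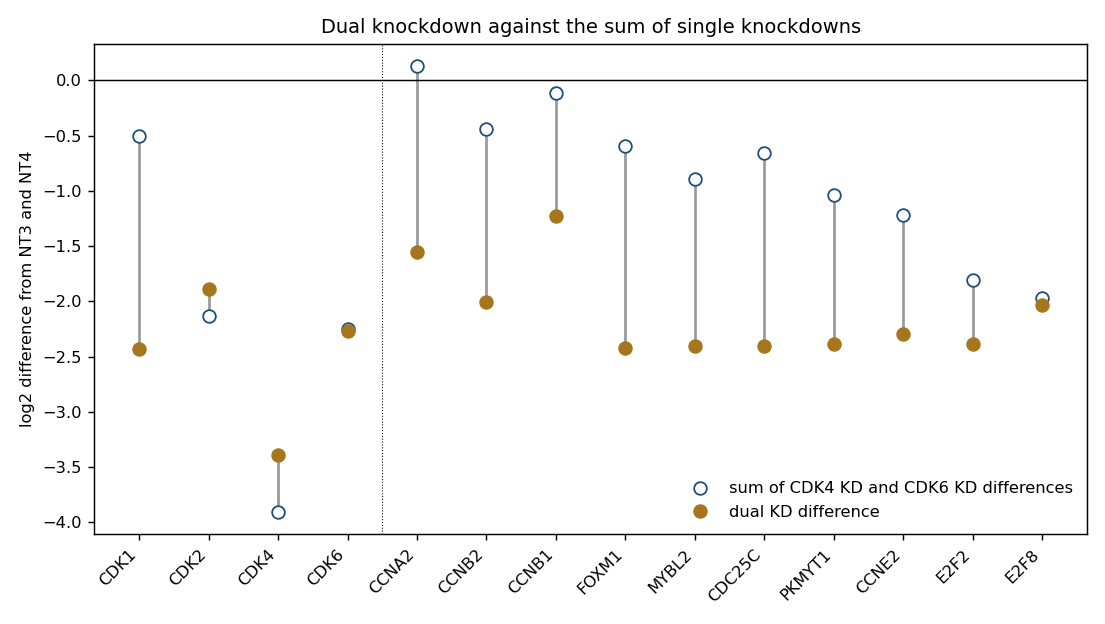
Log2 difference from the NT3 and NT4 controls (vertical axis) in the dual knockdown (filled points) and as the sum of the CDK4 and CDK6 knockdown differences (open points) for the 4 kinases and, right of the dotted line, 10 regulators chosen after their values were seen. For CDK1 the filled point, at -2.43, lies far below the open point, at -0.50, whereas for CDK2 and CDK6 the points lie close together.

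CCND1 knockdown was also set against the dual knockdown, the loss of the cyclin against the loss of both its kinases. All 4 kinases were higher after CCND1 knockdown, both targets of the dual knockdown among them, where 20.3% of all genes were called. CDK1 was 3.31-fold higher (log2 difference 1.73, limma adjusted p = 2.97e-08) and CDK2 3.14-fold higher (1.65, limma adjusted p = 1.45e-12). CDK4 and CDK6, the targets of the dual knockdown, differed by 3.21 and 2.40. All 5 A, B and E cyclins were higher after CCND1 knockdown as well, with a median of 1.25. The CCND1 siRNA left 11.8% of its target and the dual siRNAs left 9.41% of CDK4 and 20.6% of CDK6.

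**Figure D4:**
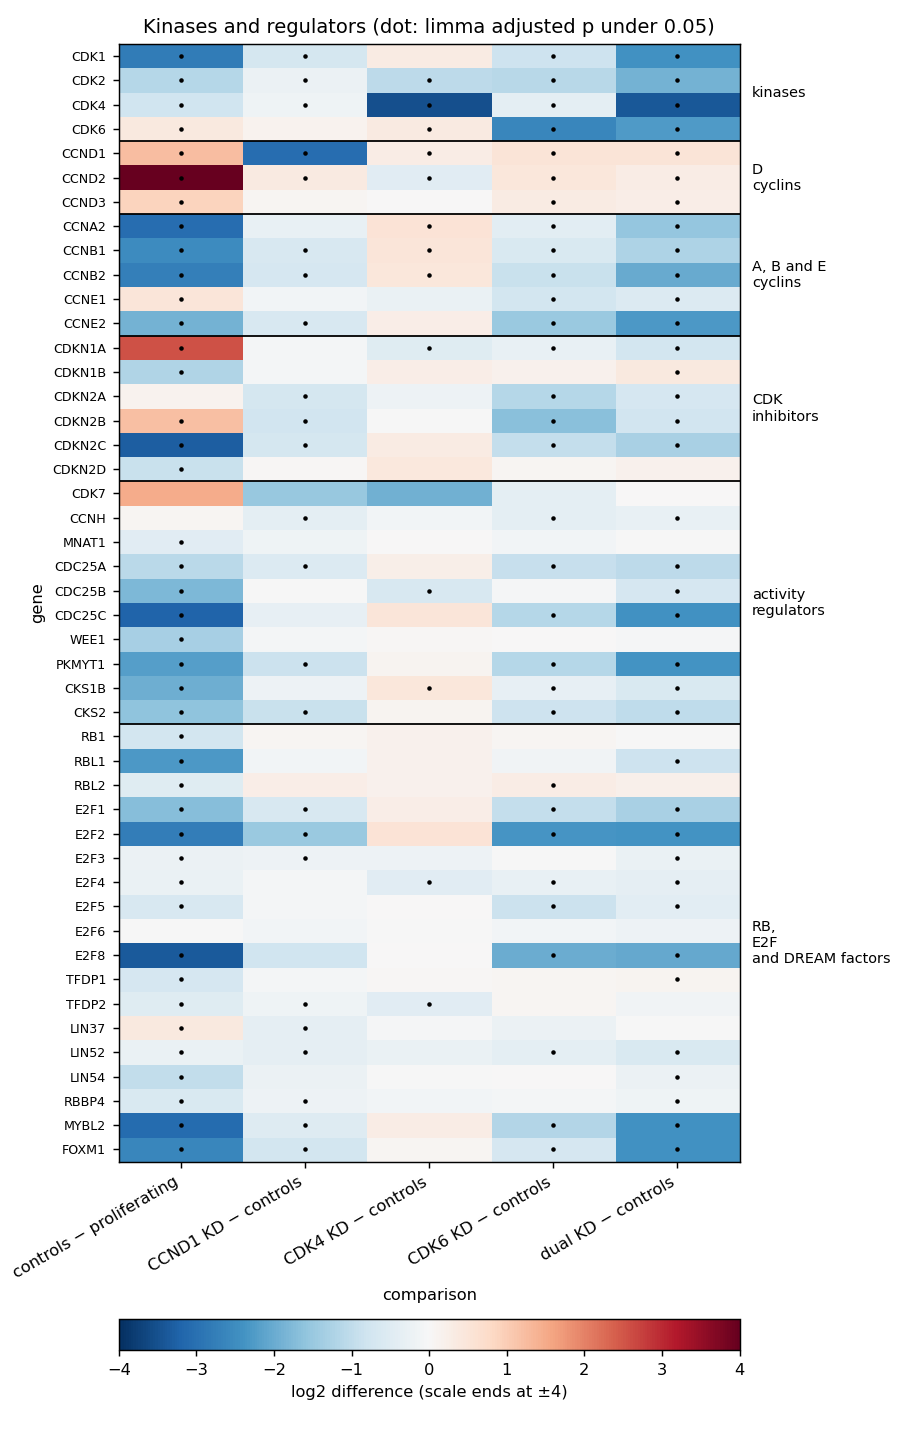
Log2 differences (colour, scale ended at ±4) of the 4 kinases and the tested members of 5 regulator lists (rows, 46 genes) in 5 comparisons (columns), with dots where the limma adjusted p was under 0.05. CCND2 in the first column, at 5.01, lies beyond the scale, and the B cyclins are higher in the CDK4 knockdown column and lower in the CDK6 and dual knockdown columns.

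Genes whose pattern over the 21 libraries was most like each kinase were listed by Pearson's r of log2 values, as a description, since the libraries share groups and controls. Genes chosen in this way follow the groups of their kinase by selection, so their levels are no separate result. For CDK1 the 5 most similar genes were TOP2A, SPAG5, SHCBP1, PRC1 and NUSAP1, with r from 0.994 to 0.996. TOP2A, a DNA topoisomerase of dividing cells, was at 8642 ± 481 in proliferating cells, 1159 ± 101.6 after CDK4 knockdown, 516 ± 75.1 after CDK6 knockdown and 169 ± 23.7 after dual knockdown, the same order of groups as CDK1 at these 4 points. For CDK2 they were CTPS1, NETO2, IER5, ADGRG6 and ETV4, with r from 0.940 to 0.964. CTPS1, an enzyme of CTP synthesis, spanned a narrower range than CDK2, from 1802 ± 38.9 in proliferating cells to 884 ± 18.5 after dual knockdown.

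For the siRNA targets, whose own values follow the siRNA groups, the most similar genes follow these groups by their selection. For CDK4 they were GOLM1, PPME1, SPPL3, TOMM70 and SHQ1, with r from 0.916 to 0.972. TOMM70, a receptor of mitochondrial protein import, was at 2088 ± 20.1 with NT3, 912 ± 70.0 after CDK4 knockdown, 1980 ± 90.4 after CDK6 knockdown and 1101 ± 77.7 after dual knockdown. TOMM70, chosen for its likeness to CDK4, was thus low in both groups given the CDK4 siRNA and near the control level after CDK6 knockdown. For CDK6 they were SRPK1, CLDN12, VEGFA, SLC39A14 and IL4R, with r from 0.919 to 0.937. VEGFA, the vascular growth factor, was at 2269 ± 10.2 after CDK4 knockdown, 1302 ± 54.6 after CDK6 knockdown and 1306 ± 42.1 after dual knockdown. Among the kinases themselves r was highest between CDK1 and CDK2 (0.864) and lowest between CDK4 and CDK6 (0.202).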

How the data were processed

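RNA from 21 libraries was read from 1 table of the whole series. Per the file headers its values are normalised counts, an expression signal that the authors deposited per gene and library. Values in each library were whole multiples of 1 step (tolerance 0.05), which makes them read counts over a size factor. Whole reads came back for 100% of values. Per the submitters' processing notes, tools named without role or order were Trimmomatic 0.38.1, HISAT2 2.2.1, featureCounts 2.0.3, FastQC 0.74, MultiQC and DESeq2 2.11.40.8, with the builds hg38 and GRCh38. The annotation and the strand setting are not given in the sources used here. The table lists genes with Entrez IDs up to 140467, of which 19 have no symbol, so depth (12892442 to 21822152 reads) covers the listed genes only.

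Samples were grouped by the labels. Column names give a group without a number, and replicate numbers follow column order, as names only. The 11579 tested genes reached 10 or more in 3 or more libraries. The log2 of the value plus 1 was fitted with limma 3.58.1 (R 4.3.3, trended empirical Bayes), with 1 mean for each of the 7 groups. Tests were two-sided and adjusted by Benjamini-Hochberg within each of 11 comparisons. edgeR 4.0.16 and DESeq2 1.42.0 were run on the recovered reads as alternatives, beside other pseudocounts, filters, scalings, controls, each library left out and a block by library number. The fit was tested on simulated data. Positions and promoters came from RefSeq and exon overlaps from GENCODE v44, on GRCh38. The kinases and the lists were chosen with earlier results of these data known. Named genes were the 4 kinases, up to 4 called members of each list with the largest difference in a comparison, the 5 genes most like each kinase, CCND1 and the cell type markers; other genes named, and the library numbers used as a block, were chosen after their values or names were seen. Neighbours in an order of means were called apart where their gap exceeded the larger SD.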

Additional observations from a re-analysis of the deposited data

Results flagged for a closer look

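The results below were picked out because 2 siRNA effects under the same contrast did not add: what remained of the dual knockdown's log2 difference after taking away both single differences (the departure) passed the limma threshold in a test of that interaction itself. Among the kinases these were CDK1 (log2 departure -1.93) and CDK4 (0.51), which is itself a target in the CDK4 and dual knockdowns. Among the cyclins they were CCNA2 (-1.68), CCNB2 (-1.57), CCNB1 (-1.12) and CCND2 (0.29). Among the CDK inhibitors they were CDKN2B (0.89) and CDKN2A (0.67). Among the regulators of kinase activity they were CDC25C (-1.75), PKMYT1 (-1.35) and CKS1B (-0.72). Among the RB, E2F and DREAM factors they were FOXM1 (-1.83), MYBL2 (-1.51), RBL1 (-0.88) and E2F1 (-0.62). CDC25C averaged 5.37 normalised counts and PKMYT1 13.6 after dual knockdown, so their departures rest on few reads. The check for a far library within a group needs 4 or more libraries and was not run on these groups of 3.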

How the results depend on the processing

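Over 44 results (4 kinases in 11 comparisons), 844 alternative values were computed: 824 kept their side of the threshold, 15 fell back from it, 5 crossed it and none of the called ones reversed. Among the 824, 8 values of 2 uncalled results changed sign (CDK1 in NT4 against NT3 and the CDK6 departure), and the others kept their direction. Against NT3 alone the values were -0.15 for CDK4 after CCND1 knockdown (limma adjusted p = 0.0942), 0.24 for CDK6 after CDK4 knockdown (0.0613) and 0.42 for the CDK2 departure (0.0108). Against NT4 alone CDK2 after CCND1 knockdown was at -0.063 (0.619), and CDK15 after CDK6 knockdown changed from 0.26 to -0.10. Fitting the compared groups only gave -0.18 (0.0898) for CDK4 after CCND1 knockdown and 0.35 (value 0.345, 0.0731) for CDK6 after CDK4 knockdown. CDK1 after CDK4 knockdown was at 0.34 with edgeR (adjusted p = 0.0381) and 0.33 with DESeq2 (adjusted p = 0.0235). Quantile normalization gave 0.30 (0.00361) for CDK4 in dual against CDK4 knockdown, and no filter 0.33 (0.0609) for CDK6 in dual against CDK6 knockdown. Leaving out each library in turn gave ranges of -0.35 to -0.12 for CDK6 in NT4 against NT3, -0.25 to -0.20 for CDK2 and -0.22 to -0.15 for CDK4 after CCND1 knockdown, 0.28 to 0.45 for CDK6 after CDK4 knockdown, and 0.28 to 0.38 for CDK6 in dual against CDK6 knockdown. The cause of these changes was not tested. Counts over all genes changed by more than 1.5 times in these cases. Fitting the compared groups only gave 955 in place of 3216 (NT4 against NT3), 2269 in place of 3594 (CCND1), 787 in place of 1854 (CDK4), 394 in place of 735 (departure) and 2434 in place of 1504 (dual against CDK6 knockdown), and NT3 alone gave 2962 (CDK4) and 1899 (departure), while NT4 alone gave 2235 (CCND1) and 455 (departure). Leaving out 1 library gave, for the departure, 1436 without NT3 replicate 3, 1190 without NT3 replicate 2, 442 without CDK4 knockdown replicate 1, 442 again without replicate 3 of the CDK6 knockdown, 449 without CDK4 knockdown replicate 2, and 475 and 481 without dual knockdown replicates 1 and 3. For CDK4 knockdown it gave 1175 and 1061 without its replicates 1 and 2, and for dual against CDK6 knockdown 937 without CDK6 knockdown replicate 3. Median centring moved the split in senescent controls against proliferating cells from 3769 higher and 4176 lower to 4614 and 3355, and the median of all genes from -0.03 to 0.09. No paired analysis was possible because the table's columns do not carry the replicate numbers of the labels. A block by runs of the library numbers in the column names, chosen after seeing them, changed no call of a kinase. Of 45 pairs in a shared run 1 correlated above 0.1 in its deviations (median r 0.037). In different runs 2 of 90 pairs did (median r -0.017). Depth limits CDK1 after dual knockdown most, at 29 to 39 reads.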

Other observations

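CDK7, the catalytic subunit of the CDK-activating kinase, had values that split within groups and not between them. It was at 128 in NT3 replicate 1, 214 in NT4 replicate 3, 213 in dual knockdown replicate 3 and 51.7 in CDK6 knockdown replicate 3, while every other library lay between 2.62 and 15.3. Its log2 difference between senescent controls and proliferating cells was 1.496 with an SE of 1.11 (limma adjusted p = 0.239). CDK15 and CDK17, kinases of the family outside the cell cycle group, were singled out after their values were seen. CDK15 fell from 597 ± 18.0 (SD, n = 3) in proliferating cells to 163 ± 24.8 with NT3 and was at 267 ± 25.5 with NT4, so the controls themselves differed. CDK17 was at 1093 ± 75.6 (n = 6) in the controls and fell to 678 ± 44.6 after CCND1 knockdown, 768 ± 55.7 after CDK6 knockdown and 817 ± 51.9 after dual knockdown, with 1204 ± 77.3 after CDK4 knockdown.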
